A study of Vitis vinifera with 2 samples.

Results

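ABC and ABCC1 are the 2 genes of the grape (Vitis vinifera) tables that carry the name of an ABC transporter, out of 30485 genes. The search used symbols and synonyms alone, so any ABC transporter listed only under a LOC number would be missed. ABC and ABCC1 were chosen by gene name, with the FPKM of ABC in both libraries already known. They hold 9 of the 53908 transcript models. RNA came from grape wound tissue that received 10 µL of suspended Yarrowia lipolytica, a yeast (the yeast library), and from wound tissue that received as much sterile water (the water library). Both stood in an incubator at 20 °C for 3 days. The labels name no grape variety, organ or number of berries, and both samples carry the yeast as their strain, so the groups follow the titles and the treatment protocol. Each group is 1 library, so every difference below is a value without a test or a replicate check. The libraries held 20540965 and 19010746 fragment equivalents (yeast and water), each taken as 300 aligned bases.

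ABC transporters are membrane proteins that use the energy of ATP to move small molecules across a membrane. The gene named ABC has the synonyms VvABCG44 and VvPDR14, which place it among the full-size ABCG transporters, also called pleiotropic drug resistance proteins. Plants use transporters of this group to export defence compounds, surface lipids and hormones. ABCC1 belongs to the ABCC group, also called multidrug resistance-associated proteins, many of which sit in the vacuole membrane. ABCC1 of grape is known as a vacuolar transporter of anthocyanin glucosides, the red pigments of the berry skin, that works together with glutathione.

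ABC, the ABCG member, stood at 747 FPKM in the yeast library and 152 FPKM in the water library. FPKM counts fragments per kilobase of a transcript, scaled to library size, and is summed here over the transcripts of 1 gene name. The yeast library was thus 4.93-fold higher, with a 95% counting interval of 4.84 to 5.02. These intervals rest on fragment equivalents, 63119 in yeast and 13291 in water for ABC, and cover counting error only. They say nothing of variation between wounds or of how fragments were divided among models. By level ABC was the 118th gene of 30485 in the yeast library and the 816th in the water library.

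ABCC1, the vacuolar member, was far less abundant, at 26.0 FPKM in yeast and 12.3 FPKM in water. The yeast library was 2.12-fold higher (1.99 to 2.26), from 3038 fragment equivalents in yeast and 1299 in water. By level it was the 4087th gene in the yeast library and the 7080th in the water library. The level of ABC per length was 28.7 times that of ABCC1 in yeast and 12.3 times in water. In bulk tissue, fewer cells of a type and less RNA per cell cannot be told apart, and the tissue make-up of the libraries was not checked with marker genes.

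On the scale log2((yeast FPKM + 1)/(water FPKM + 1)), ABC had a ratio of 2.29 and ABCC1 a ratio of 1.03. A 2-fold difference on it was the limit for a gene called higher or lower, so both members were called higher, ABCC1 by a narrow margin. Among 16040 genes with at least 1 FPKM in either library, 6.26% were called higher and 3.66% lower. These are 1004 and 587 genes. With the libraries rescaled so that the median gene has a log2 ratio of 0, the calls were 1379 higher and 288 lower. Because ABC was chosen with its ratio already known, nothing is read from this count. Measured genes had a median log2 ratio of -0.28, so ABC lay 2.57 and ABCC1 1.30 above it. By ratio ABC was the 211th and ABCC1 the 971st of the measured genes.

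**Figure D1:**
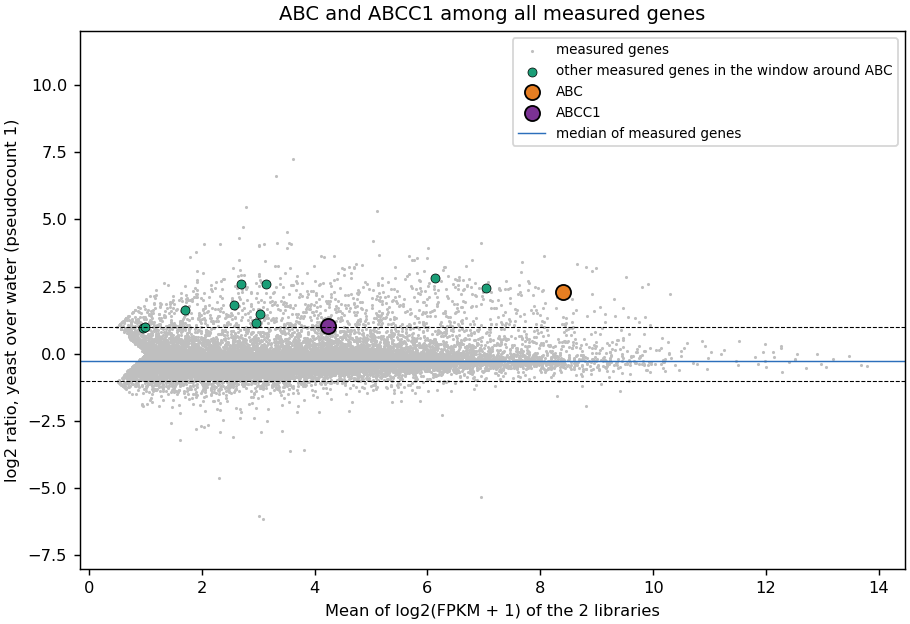
Each point is 1 of 16040 measured genes, with the mean of log2(FPKM + 1) of the 2 libraries on the x axis and the log2 ratio of yeast over water on the y axis. Dashed lines mark 2-fold and the blue line the median of -0.28. ABC lies at 2.29, ABCC1 at 1.03 just above the 2-fold line, and the 10 other measured genes around ABC lie between 0.97 and 2.81.

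The value of ABC is the sum of 2 transcript models that differ widely between the libraries. The annotated model rna19611 has 24 exons and 4614 bases and lies on the minus strand of chromosome 9, from 5336054 to 5343517. The sources used here do not name the genome build of these coordinates. It stood at 397 FPKM in yeast and 133 FPKM in water, 2.98-fold higher (2.92 to 3.05). The second model, MSTRG.7488.2, carries no annotated identifier, and such models are called assembled here. It stood at 350 FPKM in yeast and 18.5 FPKM in water, 18.9-fold higher (17.9 to 20.1). The assembled model thus held 46.8% of the FPKM of ABC in yeast and 12.2% in water. It supplied 332 of the 596 FPKM by which yeast exceeded water, or 55.7%.

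Both models of ABC begin transcription at the same base, 5343517, but the assembled one runs on to 5100703, a span of 242815 bases. The median span of all transcript models was 4646 bases, and 234 of 53908 models spanned more than 100000 bases. The assembled model of ABC was the 33rd longest. Its 21 exons add up to 3300 bases, so the mean intron would be 11976 bases long, against 124 bases in the annotated model. The positions of single exons are not in the tables used here, so how many of the 24 annotated exons it shares was not tested.

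ABCC1 lies on the plus strand of chromosome 16, from 19447167 to 19454984, with 6 annotated models and 1 assembled model. No model of another gene name meets this span. The assembled model MSTRG.12936.6, with 14 exons and 5647 bases, stood at 21.5 FPKM in yeast and 7.13 FPKM in water, 3.01-fold higher (2.78 to 3.27). It held 82.5% of the FPKM of ABCC1 in yeast and 58.0% in water. The 6 annotated models together stood at 4.55 FPKM in yeast and 5.15 FPKM in water, 0.883 times the water level (0.777 to 1.002). As FPKM was divided among the models, the higher level of ABCC1 in yeast lay in the assembled model. The annotated models alone had a ratio slightly below 1, with an interval that includes 1. These models overlap, and how fragments were divided among them is not known. Scaled to all aligned bases, the 7 models together were 2.16-fold higher in yeast, a value that does not depend on that division.

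With FPKM as divided among them, the annotated models of ABCC1 did not share a direction. The model rna36062 stood at 2.27 FPKM in yeast and 1.21 FPKM in water, 1.88-fold higher (1.502 to 2.36). The model rna36067, the shortest of the 7, stood at 0.889 FPKM in yeast and 1.36 FPKM in water, 0.652 times (0.487 to 0.870). The model rna36064 was listed at 0 in yeast, where 3 fragments would give 0.0261 FPKM, and stood at 1.25 FPKM in water, from 134 fragment equivalents. These 3 models have 14, 11 and 13 exons. The model rna36065 was near equal, at 1.02 FPKM in yeast and 1.06 FPKM in water. The models rna36063 and rna36066 stayed below 0.3 FPKM in both libraries. Their fragment equivalents ran from 7.66 to 30.1, too few to show a difference at this depth. All these values depend on how fragments were divided among overlapping models, which is not known and which the intervals do not cover. Whether any single model differed was not tested.

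**Figure D2:**
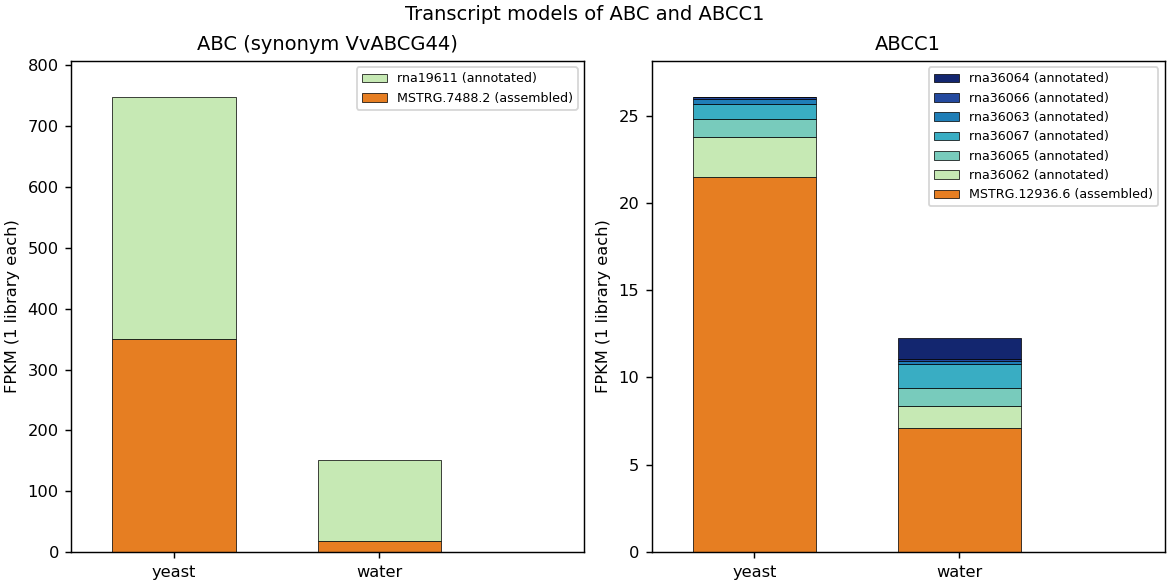
Stacked bars give the FPKM of each transcript model of ABC and of ABCC1 in the yeast and the water library, 1 library each, with assembled models in orange. The assembled model takes 46.8% of ABC in yeast and 12.2% in water, and 82.5% of ABCC1 in yeast and 58.0% in water.

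Of the 9 member models, 7 had at least 1 FPKM in either library. Of these 7, 3 were called higher at 2-fold, both models of ABC and the assembled model of ABCC1, and 1, rna36064, was called lower. Among 23481 transcript models measured in the same way, 8.08% were called higher and 7.21% lower. These values come from the same libraries and contrast that were known when ABC was chosen, so they are a description.

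The shift towards assembled models was large in both members. Among 1398 genes that have annotated and assembled models and at least 10 FPKM in both libraries, the median change of the assembled share was -0.02 percentage points, yeast minus water. Their quartiles were -4.32 and 4.30 points. ABC stood at 34.6 points and ABCC1 at 24.5 points. In 36 of these genes the share moved up by more than in ABC, and in 58 by more than in ABCC1. The sources used here do not say how fragments were divided between models of 1 gene.

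**Figure D3:**
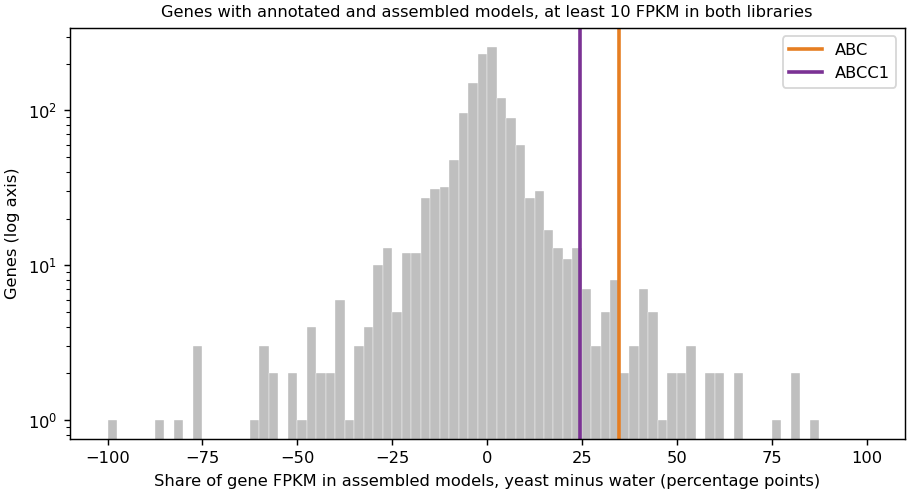
The histogram counts 1398 genes (log axis) by the change in the share of gene FPKM held by assembled models, yeast minus water, in percentage points. The median is -0.02, and ABC at 34.6 and ABCC1 at 24.5 lie in the right tail.

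The span of the assembled ABC model crosses many other gene models, which could bear on how its fragments may be shared. It meets 16 models of 13 other gene names, 15 of them lying wholly inside it, 14 on its own strand and 2 on the opposite strand. The annotated ABC model is also not free of overlap. The assembled model MSTRG.7488.3, named after the neighbour LOC100241161, reaches 2104 bases into its span. So by span neither model of ABC lies clear of other gene names. Whether their exons overlap was not tested, since the positions of single exons are not given. The library protocol does not say whether strand was recorded. Whether reads of the opposite-strand models can be told apart from those of the genes they cross is therefore not known.

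ABC shares 1 locus identifier, MSTRG.7488, with LOC100241161 and LOC100241247, at the near and the far end of the long span. Together the 5 models of this locus held 73711 fragment equivalents in yeast and 14572 in water. Scaled to all aligned bases, the locus was 4.68-fold higher in yeast (4.60 to 4.77), a value that does not depend on how fragments were split within it. ABC took 85.6% of the aligned bases of the locus in yeast and 91.2% in water. The annotated ABC model alone took 52.5% in yeast and 83.0% in water. The 2 assembled models of the locus took 36.9% in yeast and 11.2% in water.

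In the authors' deposited table of genes, ABC has a score of 2412 in yeast and 512 in water, a ratio of 4.71. The authors' deposited table lists exactly these 2 values for LOC100241161 and LOC100241247 as well. The score of ABC in the authors' deposited table equalled the aligned bases of the whole locus, scaled to the library and divided by 1447 in both libraries. Divided by the bases of the 2 ABC models alone, no common number resulted, with 1239 in yeast and 1320 in water. That row therefore describes the locus of 3 gene names and not ABC by itself. For ABCC1, the authors' deposited table has 199 in yeast and 91.3 in water, a ratio of 2.18, which is the aligned bases of its 7 models divided by 723. No transcript of either locus has such a length, and what 1447 and 723 stand for is unknown, so these scores are not read as levels.

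The measured genes around ABC were mostly higher in yeast. Between 5095102 and 5377024 on chromosome 9 the tables hold 23 models of 17 names, ABC included. Of the 16 other names, 10 were measured and 9 of these were called higher and none lower. Of these 10, 3 reached 1 FPKM in the yeast library alone, so the filter favoured a call for them, and 2 of the 3 were called higher. The other 7 had at least 1 FPKM in water, and all 7 were called higher, against 5.08% of 15478 genes with at least 1 FPKM in water. For LOC100248030 the call came from assembled models on the opposite strand, while its annotated model rna19612 stood at 3.57 FPKM in yeast and 2.33 FPKM in water, 1.53-fold higher (1.27 to 1.85) and not called. Of those 10 genes, LOC100248030 and MSTRG.7503 have spans that meet each other but not ABC. The rest share a locus or overlapping spans with ABC, so their values are not independent of it. The gene not called, LOC100261720, stood at 1.72 FPKM in yeast and 0.388 FPKM in water, with a log2 ratio of 0.97. Of the remaining 6 names, 4 were listed at 0 in both libraries, and LOC100241247 and LOC109123177 stayed below 1 FPKM.

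Most annotated models along the span resembled the annotated ABC model in size. Besides ABC, 9 of the 13 annotated models that meet the span had 23 to 25 exons and 4353 to 4792 bases. In the whole annotation, 61 of 48802 annotated models, or 0.125%, had 23 to 25 exons and 4300 to 4800 bases, a range set after the values were seen. The gene tables used here name none of the 9 as a transporter, and whether they share sequence with ABC was not tested. All 9 were higher in yeast, by 1.83-fold to 8.97-fold, with a median of 4.68-fold. These folds were taken without the pseudocount and without the limit of 1 FPKM. With both applied, LOC100241247 was not measured, LOC100261720 was measured but not called, and the rest were called higher. Of the 51 other models of this size elsewhere, 19 were measured, 1 of them was called higher, and their median log2 ratio was -0.55.

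LOC100241161 is the nearest of the 9, and begins 19957 bases downstream of the start of ABC. Its annotated model stood at 77.4 FPKM in yeast and 8.68 FPKM in water, 8.92-fold higher (8.29 to 9.60). LOC100246279 and LOC100251419, next along the span, had annotated models at 18.3 FPKM in yeast and 2.58 FPKM in water, and at 14.8 FPKM in yeast and 1.65 FPKM in water. Farther away, LOC100258373 stood at 10.5 FPKM in yeast and 4.26 FPKM in water, 2.46-fold higher (2.19 to 2.78). At the far end, 237025 bases away, LOC100241247 stood at 0.997 FPKM in yeast and 0.545 FPKM in water, 1.83-fold higher (1.28 to 2.64). Among these 9, nearer models thus tended to have larger ratios and levels. The annotated ABC model, from whose start distance is counted, was not among the 9. Its level was higher than theirs, at 397 FPKM in yeast and 133 FPKM in water. Its ratio of 2.98-fold lay below their median of 4.68-fold, while the 2 ABC models summed were 4.93-fold higher. Both ratios lay below the 8.92-fold of LOC100241161. How fragments were divided among these models is not known, so whether ABC continues the trend in ratio cannot be told. Spearman's rho between distance and fold was -0.93, between distance and yeast FPKM -0.88, and between distance and water FPKM -0.63, over 9 models that share both libraries and, for 2 of them, a locus with ABC. The 9 models together held 140 FPKM in yeast and 21.5 FPKM in water.

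Upstream of ABC, 6190 bases before its start, lies the single-exon assembled model of MSTRG.7503, with 456 bases and no gene name. It stood at 305 FPKM in yeast and 54.8 FPKM in water, 5.57-fold higher (5.06 to 6.14). The 2 ABC models summed were 4.93-fold higher (4.84 to 5.02), but 2.98-fold and 18.9-fold when taken apart. The model of MSTRG.7503 is on the same strand as ABC, has its own locus identifier, and lies inside the span of opposite-strand models named LOC100248030. Those 2 opposite-strand models each stood below 5 FPKM in both libraries. Inside the ABC span, the opposite-strand models MSTRG.7501.1 and MSTRG.7500.1 stood at 4.75 FPKM and 2.27 FPKM in yeast and were both listed at 0 in water.

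**Figure D4:**
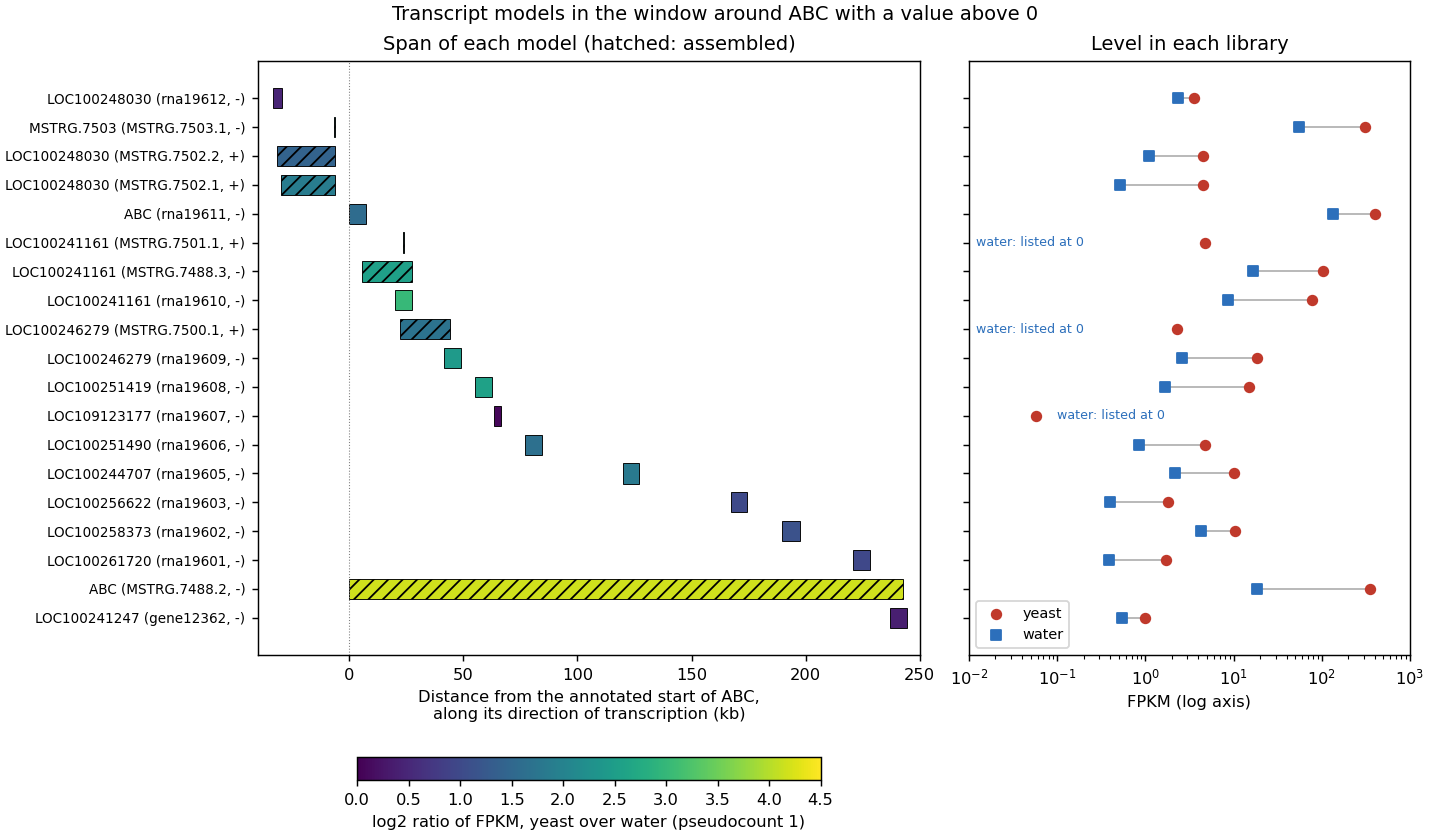
The left panel draws the span of each transcript model around ABC with a value above 0, in kb from the annotated start of ABC along its direction of transcription, coloured by log2 ratio and hatched where assembled. The right panel gives FPKM (log axis) in yeast (circles) and water (squares). The long assembled ABC model holds 12 of the 17 models of other names wholly and 1 in part, and each model with values in both libraries is higher in yeast.

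The neighbours of ABCC1 did not move with it as a group. Of 3 genes on each side, 2 were listed at 0 in both libraries. LOC100267405, the next gene downstream, stood at 1.67 FPKM in yeast and 3.09 FPKM in water. LOC100255287 and LOC100260370, upstream, stood at 1.90 FPKM in yeast and 3.28 FPKM in water, and at 102 FPKM in yeast and 105 FPKM in water. LOC100256922, the farthest of those downstream, stood at 14.9 FPKM in yeast and 4.40 FPKM in water, 3.38-fold higher (2.83 to 4.07). It was the sole one called higher among the measured neighbours, against 6.26% of all measured genes.

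The list for anthocyanin synthesis and transport held few names that the tables carry. Of 19 names in the list for the vacuolar path of anthocyanins and glutathione, 6 were found, all measured, with 1 called higher and none lower, against 6.26% and 3.66% of all measured genes. Their median log2 ratio was -0.19, and that of all measured genes -0.28. UFGT, which adds the glucose that makes anthocyanins, stood at 1.17 FPKM in yeast and 1.94 FPKM in water. GST4, a glutathione S-transferase linked to anthocyanin transport into the vacuole, stood at 27.5 FPKM in yeast and 35.7 FPKM in water, and LDOX, an enzyme of anthocyanidin synthesis, at 40.6 FPKM in yeast and 59.5 FPKM in water. DFR, the enzyme before LDOX, was near equal at 36.4 FPKM in yeast and 36.8 FPKM in water, as was GST3 at 5.86 FPKM in yeast and 5.91 FPKM in water. The gene called higher was GST1, a glutathione S-transferase, at 175 FPKM in yeast and 14.8 FPKM in water. No name of the grape MATE transporters of anthocyanins was found in the tables.

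Among 190 genes with a symbol or synonym and at least 10 FPKM in either library, ABC had the 9th highest and ABCC1 the 29th highest ratio. ABC was chosen with its ratio already known, so these ranks are a description. The 5 named genes nearest to ABC by log2 ratio, over 2 libraries and hence 1 ratio each, were LOC100248930 (synonym BAP1), MRIP1, MLO6, GVVPAL2 and PR10.8. LOC100248930 was nearest, 0.01 above ABC, at 281 FPKM in yeast and 56.1 FPKM in water. MRIP1 was near ABC in summed FPKM alone, at 4.73-fold, since its aligned bases were 16.9-fold higher in yeast. GVVPAL2, a phenylalanine ammonia-lyase, lay 0.11 above ABC, at 214 FPKM in yeast and 39.8 FPKM in water. The 5 nearest to ABCC1 were PR10.2, the vacuolar aquaporin TIP2;1, LOC100246391 (synonym SERAT), CIPK19 and NIN1. PR10.2 lay 0.04 above ABCC1, at 1422 FPKM in yeast and 680 FPKM in water, and LOC100246391 0.07 above it, at 88.5 FPKM in yeast and 40.8 FPKM in water.

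The 2 members differed in how far their ratio rested on these choices. ABC was at least 2-fold higher under each of 8 other settings on its own models, 3 of which reduce to the annotated model alone. Its log2 ratio ran from 1.57, for that model, to 2.62 with the median gene rescaled to 0. The 3 further settings take in other genes of the locus or span and are not values of ABC by itself. ABCC1 was at least 2-fold higher under 6 of 8 other settings. Its log2 ratio was 0.84 with a pseudocount of 5 and -0.15 for the annotated models alone. The latter setting leaves out the assembled model, which held 82.5% of the FPKM of ABCC1 in yeast. From aligned bases of all 7 models of ABCC1, the log2 ratio was 1.10. That value does not depend on how fragments were split among them.

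**Figure D5:**
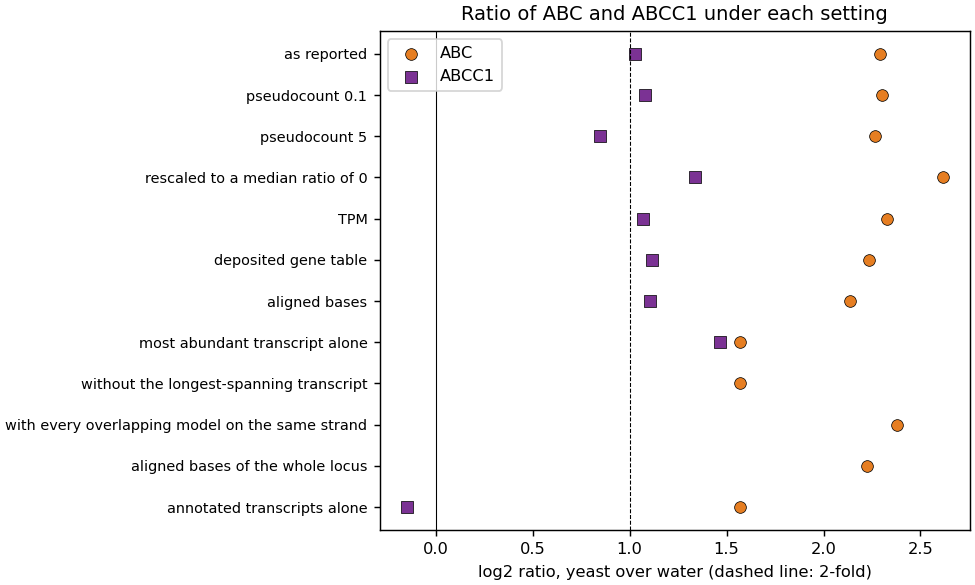
Each row is a setting, and points give the log2 ratio of yeast over water of ABC (circles) and ABCC1 (squares), with the dashed line at 2-fold. ABC stays between 1.57 and 2.62, while ABCC1 lies at 1.03 as reported, 0.84 with a pseudocount of 5 and -0.15 for annotated models alone.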

How the data were processed

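RNA of 1 yeast and 1 water library of grape wound tissue was measured. The submitters' processing notes name HISAT2 and HTSeq 0.6.1 without their roles, and the genome build and annotation are not given in the sources used here. Per the file headers, the authors' transcript tables give per-base coverage, an unscaled signal, and FPKM per model. Coverage divided by FPKM was constant, at 6.34 in yeast and 5.90 in water. The deposited gene table was treated as a score, since its values are not FPKM of the genes.

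FPKM was summed by gene name, or by locus where no name is given, and 0.142 FPKM in yeast and 0.152 FPKM in water correspond to 3 fragments on 1 kb. Ratios used a pseudocount of 1 and genes with at least 1 FPKM in either library. A fragment equivalent is 300 aligned bases. That size is an inference: 24.2% and 25.0% of models under 1000 aligned bases (yeast and water) lay within 1 base of a multiple of 150, against 1.33% if spread evenly. Intervals are exact binomial (Clopper-Pearson) 95% intervals on rounded fragment equivalents, carried to the FPKM ratio (Python 3.11.15, scipy 1.17.1). Simulated data with independent Poisson counts per gene checked the code of these intervals alone. The simulation did not cover the division of fragments among models or the size of a fragment. The intervals rest on both. These intervals cover counting error only.

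The sequence identifiers were matched to chromosomes 9 and 16 through gene names in a RefSeq table of another assembly (Vitis vinifera Pinot Noir), where 99.1% and 99.2% of matched names lay on these chromosomes. Synonyms came from that table, which held 14 of the 17 names around ABC. The genes named are both members with every model, all other genes named as ABC transporters (none was found), the models around ABC, the transport list and the 5 nearest named genes. Neighbours of ABCC1 were added after their values were seen. Members and lists were chosen with earlier results of these data known.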

Additional observations from a re-analysis of the deposited data

How the results depend on the processing

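With 1 library per group there was no replicate to leave out, and no paired analysis was possible because no groups share replicates. The log2 ratio of ABC, 2.29 as reported, was 2.26 with a pseudocount of 5, 2.62 after rescaling to a median ratio of 0, 2.33 as TPM, 2.23 in the authors' deposited table, 2.13 from aligned bases and 2.38 summed over the 16 same-strand models of its span, its own included. It was 1.57 for the most abundant transcript alone, without the longest-spanning transcript and for annotated transcripts alone, since all 3 settings leave rna19611. It was 2.23 from aligned bases of the whole locus. No value could be had from ABC transcripts whose span is free of other gene names, since 0 are. The log2 ratio of ABCC1, 1.03 as reported, was 0.84 with a pseudocount of 5, 1.34 after rescaling to a median ratio of 0 and 1.10 from aligned bases. It was 1.47 for the most abundant transcript alone and -0.15 for annotated transcripts alone. The number of genes past 2-fold in either direction was 1591 as reported, 2791 with a pseudocount of 0.1, 738 with a pseudocount of 5 and 926 with at least 10 FPKM. Genes called higher made up 63.1% of these as reported, 44.8% with a pseudocount of 0.1, 84.3% with a pseudocount of 5, 82.7% after rescaling and 74.9% with at least 10 FPKM. The other settings kept that count within 1.5 times. The settings with annotated transcripts alone and with the whole locus were chosen after seeing the data. Depth sets counting error only.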
